A study of Homo sapiens with 36 samples.

Results

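The regulatory neighbourhoods of 7 genes for transcription factors of the kidney lineage, PAX8, PAX2, WT1, LHX1, HNF4A, SOX9 and EMX2, were examined for binding of V5-tagged HIF-α proteins in 786-O cells. Members were chosen by position, as peaks whose summit lay in the gene body or within 50 kb on either side, and 187 of the 213711 peaks in the 18 anti-V5 lists met this rule. The 7 genes were set against all 20033 protein-coding genes of the annotation, and their 187 peaks merged into 46 regions. Of these regions 25 held a peak in at least 2 libraries, out of 25783 such regions genome-wide, and the other 21 rested on a single library.

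786-O is an established line from a clear cell renal cell carcinoma, the kidney cancer in which loss of VHL leaves HIF-α stable in normal oxygen, and this line has no functional HIF-1α. Cut&Run, in which a nuclease tethered to an antibody releases the bound DNA fragments, was run with anti-V5 in 6 lines of 3 replicates each. WT cells carried no tag. The HIF-2a KIN line is a single homozygous clone, A31, with V5 and Halo added to the N terminus of the endogenous HIF-2α loci. The remaining 4 lines stably expressed a V5-Halo fusion from an L30 promoter on top of the untagged endogenous HIF-2α. These were full-length HIF-2a, full-length HIF-1a, the chimera HIF-2a/1a (residues 1 to 365 of HIF-2α joined to residues 364 to 826 of HIF-1α) and the chimera HIF-1a/2a (residues 1 to 363 of HIF-1α joined to residues 366 to 870 of HIF-2α). The N-terminal part holds the DNA-binding and dimerization domains (DBD), and the C-terminal part is the intrinsically disordered region (IDR) with the activation domains. All cells were 786-O without drug or hypoxia treatment in the labels, and the amount of tagged protein in each line is not a value of these files.

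HIF-α proteins pair with HIF-1β and bind the hypoxia response element (HRE), whose core reads ACGTG or GCGTG. PAX2 and PAX8 are paired-box factors that specify the nephric lineage and stay on in most renal carcinomas. LHX1 acts with them in the nephric duct and early nephron, WT1 is a zinc-finger factor of nephron progenitors and podocytes, and EMX2 is a homeobox factor needed in the ureteric bud. HNF4A is the nuclear receptor of proximal tubule differentiation, and SOX9 marks ureteric tips and injured tubules.

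The peak lists differed in length. The 15 tagged libraries held 3984 to 20808 peaks and the WT libraries 392, 9508 and 743, so that WT replicate 2 stood apart from the other WT lists. The depth that could be recovered from the lists ran from 0.241 to 0.625 fragments per base. Nothing in the labels beyond the word biological says whether replicates were separate cultures, and p-values measure the spread between these libraries.

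At the paired-box genes, WT1 and LHX1, 5 regions were called in 10 or more of the 15 tagged libraries. Each region is named by its gene and by the distance of its summit from the annotated 5′ end of the gene, positive when downstream. The 101 reference bases around the median summit of each (hg38, plus strand) show how much of the HRE core lies directly under the signal. HRE cores on either strand, which read CACGT or CACGC on the plus strand when they lie on the minus strand, are in capitals. The sequences lie at chr2:113241058-113241158, chr10:100731306-100731406, chr10:100696811-100696911, chr11:32421402-32421502 and chr17:36901762-36901862, in the order printed.
PAX8 +37.8 kb: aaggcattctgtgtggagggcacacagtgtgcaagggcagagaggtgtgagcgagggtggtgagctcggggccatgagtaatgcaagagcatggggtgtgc
PAX2 -4.0 kb: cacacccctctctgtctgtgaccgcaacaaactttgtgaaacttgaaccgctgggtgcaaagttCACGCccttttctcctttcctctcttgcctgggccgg
PAX2 -38.5 kb: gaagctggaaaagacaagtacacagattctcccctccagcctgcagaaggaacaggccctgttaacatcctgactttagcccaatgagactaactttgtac
WT1 +14.1 kb: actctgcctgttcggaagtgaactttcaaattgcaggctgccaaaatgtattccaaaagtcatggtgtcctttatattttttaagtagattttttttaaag
LHX1 -35.0 kb: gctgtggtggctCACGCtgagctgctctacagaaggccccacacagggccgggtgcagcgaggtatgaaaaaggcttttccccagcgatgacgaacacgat

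One core, written CACGC, lay 16 bp from the PAX2 -4.0 kb summit, and another lay 36 bp from the LHX1 -35.0 kb summit. The windows at PAX8 +37.8 kb, WT1 +14.1 kb and PAX2 -38.5 kb held none. Within the whole region the nearest core was 138 bp from the PAX8 summit and 77 bp from the WT1 summit, and the region at PAX2 -38.5 kb had no core. Of the 25 member regions called in at least 2 libraries, 7 (28%) held a core in the same window, against 24.4% of all 25783 regions and 34.5% of the 1720 regions called in all 15 tagged libraries. The AP-1 motif TGACTCA, in either orientation, was in 0 of the 25 windows and in 8.31% of all windows, and these shares describe letters in a fixed window only.

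The 5 regions fell in different parts of their loci. PAX8 +37.8 kb (chr2:113239892-113242154) lay in intron 7 of the main PAX8 transcript, in an exon of another annotated PAX8 transcript and in an intron of the antisense gene PAX8-AS1. Its summit was 671 bp from the nearest annotated PAX8 transcription start. PAX2 -4.0 kb (chr10:100730539-100732599) and PAX2 -38.5 kb (chr10:100696633-100697840) were intergenic and upstream of PAX2. WT1 +14.1 kb (chr11:32420590-32422950) lay in intron 3 of WT1, 3855 bp from the nearest annotated WT1 start. LHX1 -35.0 kb (chr17:36901602-36902100) lay in an intron of LHX1-DT, the divergent transcript of LHX1. No other protein-coding gene overlapped the PAX2, WT1, SOX9 and EMX2 windows, whereas the PAX8 window also held PSD4, the LHX1 window AATF, and the HNF4A window FITM2, R3HDML and TTPAL.

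**Figure D1:**
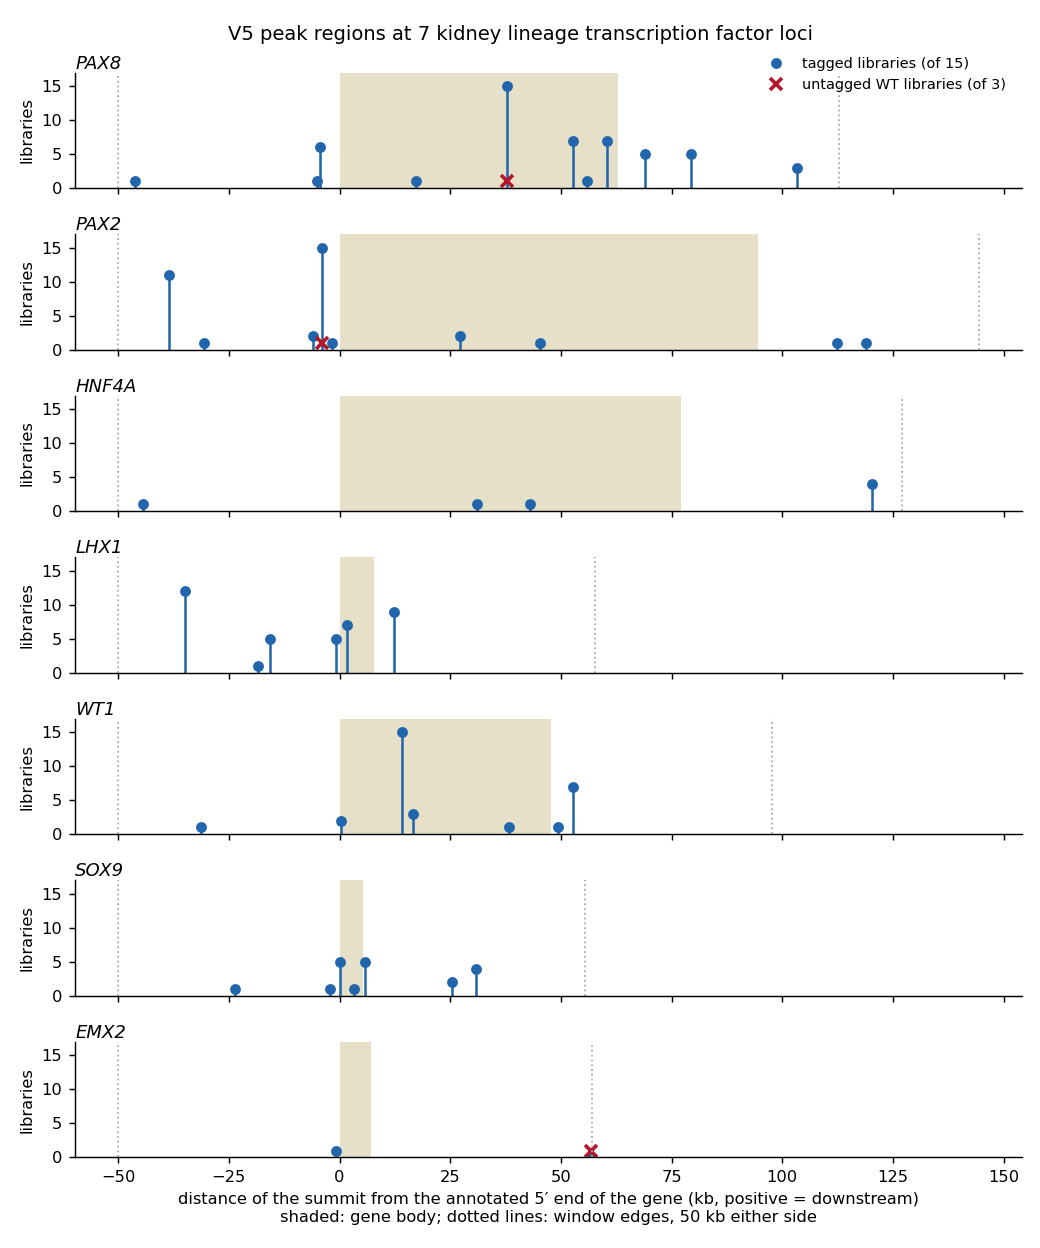
Merged V5 peak regions at the 7 loci by distance of the summit from the 5′ end of the gene (kb). Stem height is the number of tagged libraries (of 15) with a peak there, red crosses are WT libraries (of 3), shading is the gene body, and dotted lines are the window edges. The stems that reach 15 are PAX8 +37.8 kb, PAX2 -4.0 kb and WT1 +14.1 kb.

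First, peaks at each locus were compared between tagged and untagged cells, the question being which signal depends on the V5 tag. PAX8, PAX2 and WT1 had a peak in 15 of 15 tagged libraries, LHX1 in 13, SOX9 in 9, HNF4A in 5 and EMX2 in 1. A peak in all 15 tagged libraries was found at 18.4% of the 18225 protein-coding genes with any peak. WT1 was the single member with more peaks in tagged than in WT libraries at an adjusted p under 0.05, where 6.26% of genes passed in that direction.

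WT1 held 1, 1 and 3 peaks in HIF-2a KIN, 2, 2 and 2 in HIF-2a, 2, 4 and 1 in HIF-2a/1a, 1, 3 and 2 in HIF-1a, and 2, 2 and 2 in HIF-1a/2a. All 3 WT libraries held 0. The means were 2.0 ± 0.845 (SD, n = 15) and 0 (n = 3), and the exact permutation test gave p = 0.00245 and an adjusted p of 0.0392. When peaks were restricted to a -log10 q of at least 5, the adjusted p for WT1 was 0.0547 and PAX2 passed in its place at 0.0476. In a window of 100 kb the adjusted p for WT1 was 0.0587.

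PAX8 held the most peaks of the 7 loci. It had 1, 1 and 1 in HIF-2a KIN, 1, 5 and 2 in HIF-2a, 3, 6 and 2 in HIF-2a/1a, 8, 5 and 5 in HIF-1a, and 5, 4 and 3 in HIF-1a/2a, and the WT libraries held 0, 2 and 0. The tagged mean of 3.47 ± 2.17 (SD, n = 15) was higher than that of 89.8% of protein-coding genes. Its excess over WT, 2.8 peaks, had an adjusted p of 0.207 by the exact permutation test. Both WT peaks were in the list of WT replicate 2, and the tagged and WT ranges overlapped.

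PAX2 held 1, 2 and 2 peaks in HIF-2a KIN, 2, 2 and 2 in HIF-2a, 4, 5 and 3 in HIF-2a/1a, 1, 2 and 2 in HIF-1a, 3, 3 and 1 in HIF-1a/2a, and 0, 1 and 0 in WT (difference 2.0, exact permutation adjusted p = 0.112). HIF-2a/1a had the highest PAX2 counts and none of its libraries held fewer than 3. LHX1 held 1, 1 and 1 peaks in HIF-2a KIN, 0, 3 and 0 in HIF-2a, 2, 2 and 3 in HIF-2a/1a, 4, 5 and 4 in HIF-1a, 3, 5 and 5 in HIF-1a/2a, and 0 in every WT library (difference 2.6, exact permutation adjusted p = 0.15). Before adjustment, p was under 0.05 for PAX2, LHX1 and WT1, 3 of the 7 members, and for 5011 of 18225 genes.

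The remaining loci held fewer peaks. SOX9 had 0 peaks in all HIF-2a KIN libraries, 0, 5 and 0 in HIF-2a, 1, 1 and 1 in HIF-2a/1a, 0, 1 and 1 in HIF-1a, and 2, 4 and 3 in HIF-1a/2a. HNF4A had 7 peaks in all 18 lists, 5 of them in HIF-1a libraries, and none in HIF-2a KIN or HIF-2a. EMX2 had 1 peak in a tagged library, HIF-2a replicate 3, and 1 in WT replicate 2. The tagged means of HNF4A and EMX2, 0.467 and 0.0667 peaks, were above those of only 32.9% and 10.6% of protein-coding genes, and SOX9, at 1.27, was above 59.4%. Windows lengthen with the gene, and per 100 kb of window SOX9 held 1.2 peaks, above 70.7% of genes. PAX2 also held 1.2 by this measure (70.6%), and HNF4A and EMX2 were above 33.1% and 16.5%.

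**Figure D2:**
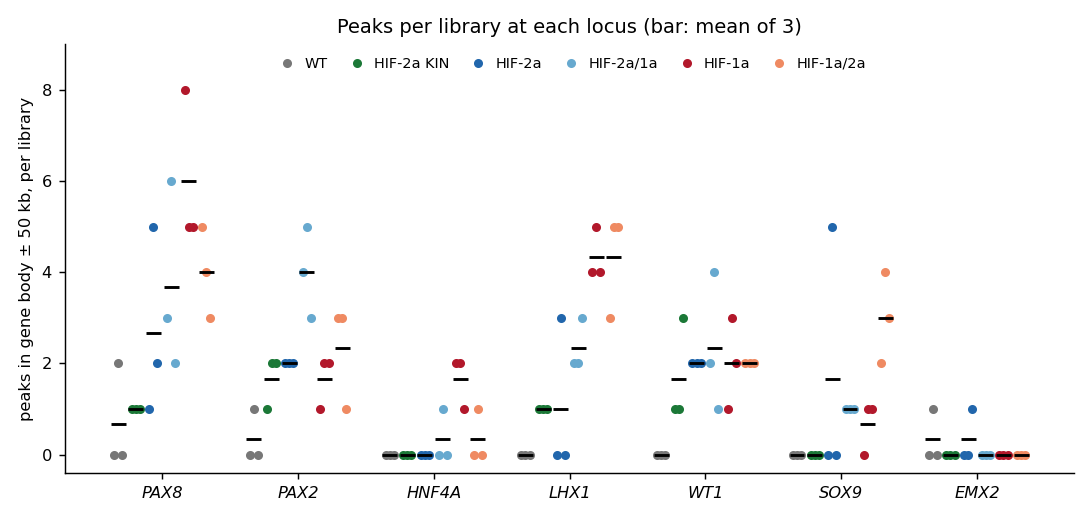
Peaks per library in each gene body ± 50 kb (y axis), by gene (x axis) and line (colour); points are libraries and bars are means of 3. The PAX8 and LHX1 means are highest in the HIF-1a and HIF-1a/2a lines, although HIF-2a/1a replicate 2 held 6 peaks at PAX8, and WT1 lies at 1 to 4 in the tagged libraries and at 0 in WT.

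At the level of single regions, the same comparison asked which sites were called with the tag and not without it. PAX8 +37.8 kb, PAX2 -4.0 kb and WT1 +14.1 kb were called in 15 of 15 tagged libraries, as were 6.67% of the 25783 regions. WT1 +14.1 kb was called in 0 of 3 WT libraries. Those lists held 392, 9508 and 743 peaks, against 3984 to 20808 in the tagged libraries, and the part of the short WT lists was not tested. WT1 +14.1 kb was the single member region past an adjusted p of 0.05 (two-sided Fisher's exact test, adjusted p = 0.0263), where 4.66% of all regions passed. Its Fisher p of 0.00123 was the smallest possible with 15 and 3 libraries, so the pass restates its call pattern. Of the 1720 regions called in all 15 tagged libraries, 1201 passed. An exact permutation test within replicate numbers gave WT1 +14.1 kb an adjusted p of 0.0994, and no region passed. PAX8 +37.8 kb and PAX2 -4.0 kb were each called in 1 of 3 WT libraries, replicate 2. No member region was called in 2 or more WT libraries, against 1.93% of all regions.

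In raw fold enrichment the strongest WT replicate 2 peak in each of these regions was below the tagged ones. At PAX8 +37.8 kb the stronger of the 2 WT peaks, by -log10 q, had a fold enrichment of 5.31, below the lowest tagged value of 5.96. Its summit was 860 bp from the median summit, and the fold and summit of the other WT peak were not examined. The 15 tagged summits lay within 41 bp of the median. At PAX2 -4.0 kb the WT fold enrichment was 6.94, below the lowest tagged value of 11.6, with a summit 108 bp away, and the tagged summits lay within 39 bp. WT replicate 2 ranked these peaks at 15.1% and 19.4% of its list. At PAX8 this was within the tagged range and ahead of 2 HIF-2a KIN libraries and 1 HIF-2a library, at 19.7, 22.0 and 24.8%. In log2 fold centred on each library's median, for WT over the regions it called, WT replicate 2 was within the tagged range at both sites. It stood at -0.29 at PAX8, above all HIF-2a KIN libraries (-0.46, -0.85 and -1.13), where tagged values ran from -1.32 to 1.06. At PAX2 it stood at 0.10, where tagged values ran from -0.38 to 1.52.

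With 3 WT libraries, leaving any one of them out ended both WT1 calls, as it did every call of these comparisons over all 18225 genes (from 1140 to 0) and all 25783 regions (from 1201 to 0). The adjusted p for WT1 was then 0.0682 to 0.147 for the locus and 0.119 to 0.156 for the region, although the differences were unchanged at 2.00 peaks and 100 percentage points. With a WT library left out, the smallest p that the permutation or Fisher test can give is 0.00735. WT1 reached that p each time, so the loss shows the limit of the tests and not a change at WT1.

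PAX8 +37.8 kb had the best median rank of the member sites and its level varied by line. Fold enrichment over the local background was 6.57, 9.72 and 5.96 in HIF-2a KIN, 6.04, 16.1 and 17.1 in HIF-2a, 31.3, 13.6 and 24.7 in HIF-2a/1a, 20.6, 24.2 and 39.5 in HIF-1a, and 40.0, 33.9 and 34.8 in HIF-1a/2a. Comparisons by domain set the 12 libraries of the 4 exogenous lines against each other and not HIF-2a KIN. The limma fits below held all 15 tagged libraries, so that HIF-2a KIN entered their estimate of the spread and their choice of regions. Each domain group was 2 lines of 3 libraries, so other differences between these lines cannot be told apart from the domain. Exogenous lines with the HIF-1α DBD sat at 20.6 to 40.0 and those with the HIF-2α DBD at 6.04 to 31.3, with overlap. The means were 32.2 ± 8.05 and 18.1 ± 8.81 (SD, n = 6 each). By line they were 28.1 in HIF-1a and 36.3 in HIF-1a/2a, against 13.1 in HIF-2a and 23.2 in HIF-2a/1a. Within each list, where rank is by -log10 q and given as a percentage of the list with low values for the strongest peaks, this site stood at 0.251 to 1.32% in the 6 libraries with the HIF-1α DBD and at 2.56 to 24.8% in the 6 with the HIF-2α DBD. These 2 groups did not overlap, which was so in either direction for 2.62% of the 1720 regions called in all 15 tagged libraries and in this direction for 2.44%. The lists held 11679 to 20572 peaks with the HIF-1α DBD and 5906 to 20808 with the HIF-2α DBD, and the part of list length in these ranks was not tested.

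The limma fit on log2 fold enrichment, with each library centred on its median over those 1720 regions, put the HIF-2α DBD 1.01 ± 0.34 (SE) log2 units below the HIF-1α DBD at PAX8 +37.8 kb, a log2 difference of -1.01. The adjusted p of 0.0843 missed the threshold that 2.56% of regions passed. Leaving out each of the 15 libraries in turn gave -1.27 to -0.76, with adjusted p of 0.0242 to 0.285. Only 1 of these fits passed, the one without HIF-2a replicate 3. Without centring the difference was -0.95 ± 0.41 (limma adjusted p = 0.454). Over regions in at least 2 of 3 libraries of every tagged line it was -0.96 ± 0.34 (limma adjusted p = 0.111). Other measures of the same peaks gave other values. Fragments at the summit over library depth gave -1.11 ± 0.14 with a limma adjusted p of 7.49e-06, where 25.9% of the regions passed. Within-list rank was fitted as log2 odds with the sign turned, so that stronger peaks score higher, and gave -2.95 ± 0.61. Its limma adjusted p was 0.00141, where 4.3% passed, on lists of the unequal lengths above. By IDR the log2 fold difference was 0.01 ± 0.34 (adjusted p = 0.992), and 2.03% of the regions passed that comparison. The limma test of whether the IDR difference depended on the DBD gave -0.72 ± 0.68 (adjusted p = 0.999).

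At PAX2 -4.0 kb no difference by domain passed in fold enrichment. It was 25.8, 18.6 and 16.5 in HIF-2a KIN, 28.8, 25.0 and 11.6 in HIF-2a, 45.6, 58.4 and 42.1 in HIF-2a/1a, 16.3, 26.3 and 23.4 in HIF-1a, and 22.2, 59.3 and 44.7 in HIF-1a/2a. Both chimeras had higher means, 48.7 ± 8.59 and 42.1 ± 18.7, than the full-length proteins, 21.8 ± 9.03 and 22.0 ± 5.14 (SD, n = 3 each). In the limma fit the difference was 0.06 ± 0.34 log2 units by DBD (adjusted p = 0.949) and 0.05 ± 0.34 by IDR (adjusted p = 0.96). The test of whether the IDR difference depended on the DBD gave -1.51 ± 0.67 with an adjusted p of 0.824. By fragments over depth the DBD difference was 0.41 ± 0.13, higher with the HIF-2α DBD (limma adjusted p = 0.0267, against 25.9% of regions).

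At WT1 +14.1 kb 4 of the 5 line means lay between 23.5 and 27.8. Fold enrichment was 25.7, 32.2 and 18.6 in HIF-2a KIN, 21.0, 36.9 and 25.4 in HIF-2a, 19.9, 30.4 and 20.3 in HIF-2a/1a, 17.5, 31.3 and 24.8 in HIF-1a, and 29.1, 78.7 and 37.8 in HIF-1a/2a. The HIF-1a/2a line was highest on average, at 48.5 ± 26.5 (SD, n = 3), and its range overlapped those of the other lines. The mean was 38.1 ± 20.9 in lines with the HIF-2α IDR, and 24.0 ± 5.79 for the HIF-1α IDR (SD, n = 6 each). The limma difference by IDR was 0.81 ± 0.33 log2 units (adjusted p = 0.17), and by fragments over depth it was 0.42 ± 0.15 (adjusted p = 0.0279), a comparison that 45.3% of all regions passed. By DBD it was -0.44 ± 0.33 (adjusted p = 0.564).

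Endogenous and exogenous HIF-2α were also compared at these 3 sites. Exogenous HIF-2a minus HIF-2a KIN was 0.18 ± 0.48 log2 units at PAX8 +37.8 kb, -0.49 ± 0.48 at PAX2 -4.0 kb and -0.41 ± 0.47 at WT1 +14.1 kb. None of the 3 passed (limma adjusted p = 0.784 to 0.941), where 0.523% of the regions did, and the clonal origin of the KIN line cannot be told apart from its mode of expression.

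**Figure D3:**
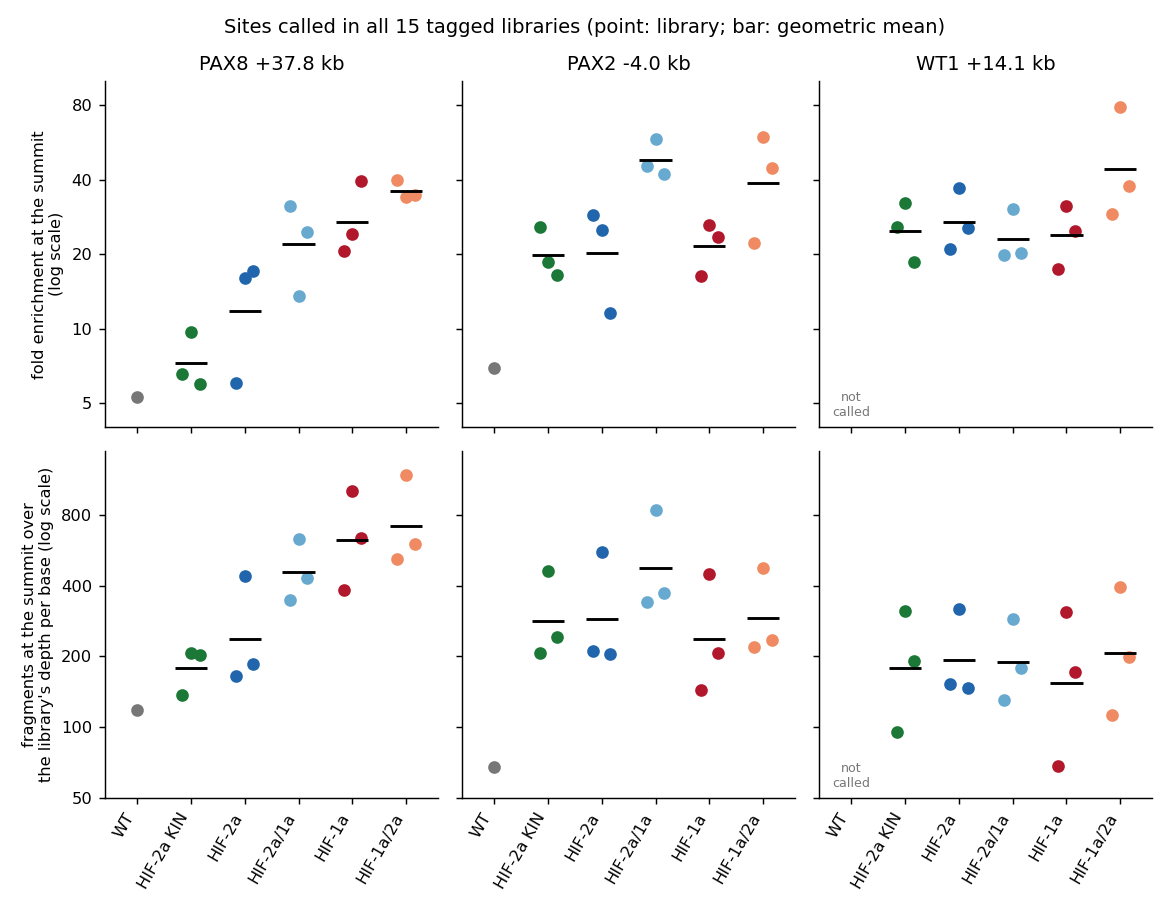
Fold enrichment (upper row) and fragments at the summit over library depth (lower row), both on log axes, at the 3 regions called in all 15 tagged libraries. Points are libraries, colours are lines, and bars are geometric means of 3; WT points are replicate 2 alone. At PAX8 +37.8 kb the HIF-1a and HIF-1a/2a bars sit highest in both rows, and at PAX2 -4.0 kb the chimeras have the highest bars in fold enrichment.

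At LHX1, calls near its own start came mainly from lines with the HIF-1α DBD, and no difference by DBD passed adjustment. The region at LHX1 -0.8 kb (chr17:36935337-36937001) was called in 3 of 3 HIF-1a and 2 of 3 HIF-1a/2a libraries and in no other library. LHX1 +1.6 kb (chr17:36938080-36938595), in the first intron and 91 bp from an annotated start, was called in all 6 libraries with the HIF-1α DBD and in 1 of 6 with the HIF-2α DBD, HIF-2a replicate 2. Both had p = 0.0152 by two-sided Fisher's exact test before adjustment and did not pass after it (adjusted p = 1). They were the only 2 of the 25 member regions under 0.05 by DBD, against 0.555% of all regions, and 0 of the 25 were under 0.05 by IDR, against 1.39%.

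In fold enrichment LHX1 -0.8 kb reached 14.9, 16.7 and 12.7 in HIF-1a and 9.5 and 12.6 in HIF-1a/2a replicates 2 and 3. LHX1 +1.6 kb reached 9.74, 10.6 and 8.62 in HIF-1a, 8.51, 16.0 and 9.31 in HIF-1a/2a and 7.61 in HIF-2a replicate 2. These were mid-list peaks, at 20.6 to 35.7% and 21.3 to 59.6% of their lists. At LHX1 +1.6 kb the ranks ran from 4050 to 12310. Of the exogenous lists without a call there, HIF-2a replicates 1 and 3 held 6590 and 5906 peaks. Those of HIF-2a/1a held 16977, 20808 and 12371. The part of list length in these region calls was not tested.

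Counted over the locus, LHX1 had 4.33 ± 0.816 peaks with the HIF-1α DBD and 1.67 ± 1.37 with the HIF-2α DBD (SD, n = 6 each), and the ranges met at 3. The exact permutation test within IDR classes gave p = 0.01, where 0.005 is the smallest it can give, and an adjusted p of 1. Under 0.05 before adjustment were 1.72% of 17602 genes by DBD and 8.93% by IDR. None of the 17602 genes, 0%, passed adjustment in either comparison, so that no locus could be called. With every tagged list cut to its 3984 strongest peaks, the LHX1 difference of -2.67 became -0.83 (exact permutation p = 0.09).

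LHX1 -35.0 kb was shared more widely. It was called in 2 of 3 HIF-2a KIN, 1 of 3 HIF-2a and all 9 libraries of the other 3 lines, with a fold enrichment of 6.35 to 19.6 (median 9.76). PAX2 -38.5 kb was called in 2 of 3 libraries of every tagged line except HIF-2a/1a, where all 3 had it, with a fold enrichment of 6.99 to 16.1 (median 10.9). Neither was called in WT. Both ranked lower than the 3 shared sites, with median ranks of 17.5% and 29.0% of the list, against 3.12% for PAX8 +37.8 kb, 3.87% for PAX2 -4.0 kb and 7.97% for WT1 +14.1 kb.

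By DBD the other loci gave no call either. PAX8 had 5.0 ± 1.67 peaks with the HIF-1α DBD and 3.17 ± 1.94 with the HIF-2α DBD (exact permutation p = 0.135), and with 3984 peaks per list the difference of -1.83 became -0.17. HNF4A had 1.0 ± 0.894 and 0.167 ± 0.408 (exact permutation p = 0.1). By IDR, SOX9 had 2.33 ± 2.07 peaks where the IDR was that of HIF-2α and 0.833 ± 0.408 where it was that of HIF-1α (SD, n = 6 each; exact permutation p = 0.185). A single library, HIF-2a replicate 2, held 5 of the 19 SOX9 peaks.

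Weaker regions filled the rest of the loci. PAX8 +60.4 kb, in exon 12 of PAX8, and PAX8 +52.8 kb, in intron 10, were each called in 7 exogenous libraries, with fold enrichments of 6.27 to 11.1 and 6.34 to 13.1. WT1 +52.7 kb, beyond the 3′ end of WT1, was called in 7 at 4.74 to 10.9, SOX9 +5.8 kb in 5 at 4.28 to 15.2, and SOX9 +30.8 kb in 4 at 5.52 to 9.39. WT1 +16.5 kb was called in 3 libraries and PAX2 -6.1 kb in 2, both of them HIF-2a/1a. HIF-2a KIN and WT had no call at any of these 7 regions. Of the 46 merged regions, 12 were called in 5 to 9 tagged libraries and 29 in fewer than 5, and 7 had their summit within 1 kb of an annotated start of a member.

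Some peaks in the windows lay at the starts of neighbouring genes. HNF4A +120.2 kb, called in 3 HIF-1a libraries and in HIF-2a/1a replicate 2, had its summit 4 bp from an annotated start of TTPAL, and HNF4A -44.4 kb lay 114 bp from a start of FITM2. LHX1 +12.2 kb, called in 9 tagged libraries, lay 8 bp from a start of AATF, and PAX8 +79.5 kb, called in 5, lay 845 bp from a start of PSD4 in a PSD4 intron. Within 50 kb of HNF4A, the peaks in the gene itself were therefore HNF4A +31.0 kb and HNF4A +43.0 kb, in 1 library each, HIF-1a/2a replicate 2 and HIF-1a replicate 2. SOX9 +0.0 kb lay at the SOX9 start, 31 bp from it, and was called in 3 of 3 HIF-1a/2a libraries, in HIF-1a replicate 3 and in HIF-2a replicate 2.

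**Figure D4:**
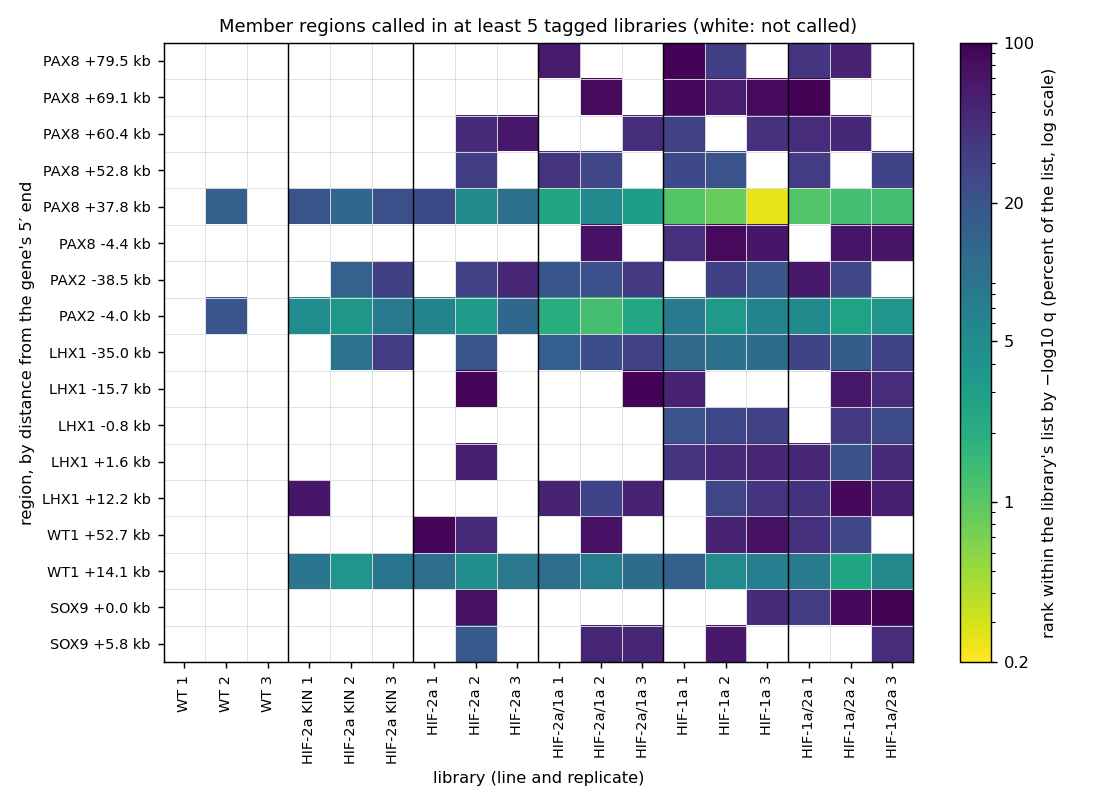
Within-list rank (colour, log scale, as a percentage of the list, yellow for the strongest peaks) of the 17 member regions called in at least 5 tagged libraries (rows) in the 18 anti-V5 libraries (columns). White means not called. The PAX8 +37.8 kb, PAX2 -4.0 kb and WT1 +14.1 kb rows are filled across all tagged libraries, and LHX1 -0.8 kb and LHX1 +1.6 kb are filled mainly in the HIF-1a and HIF-1a/2a columns.

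Other kidney transcription factors gave a reference for the 7 members. Among 25 such genes, MECOM had a peak in all 15 tagged libraries, FOXC2 in 14 and HOXA11 in 13, and 4 genes had none. The tagged means of MECOM, FOXC2 and HOXA11 were 1.53 ± 0.915, 2.07 ± 1.1 and 3.93 ± 3.08 peaks (SD, n = 15), and each had a peak in 1 WT library. The median over the 25 genes was 0.4 peaks, against 2 over the 7 members and 0.933 over all 20033 protein-coding genes. None of the 25 passed adjustment against WT by the exact permutation test, 2 were under 0.05 before it, FOXC2 among them, and none was under 0.05 by IDR or DBD.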

How the data were processed

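Peak lists of 18 anti-V5 Cut&Run libraries were used. The authors aligned paired reads to hg38 with Bowtie2 2.3.4.1 (fragments of 10 to 700 bp), called peaks in each library with MACS2 over its matched IgG control (q of 0.01), and removed blacklisted regions with bedtools 2.28.0. The deposited lists give fold enrichment (a ratio over local background), -log10 p and -log10 q. No peak lay beyond the chromosome lengths of the reference used here. Genes were from GENCODE 44, and sequences were read from hg38.

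Summits were 1-based, and peaks of all lists that overlapped by at least 1 bp were merged. Whole fragments at each summit, and the depth per base, were recovered from the deposited fold and -log10 p. Of the peaks with a -log10 p under 100, 100% matched within a tolerance of 0.001 (0.01 in 1 library). Stronger peaks were matched by a separate search with a wider tolerance, 99.1% of them in HIF-2a/1a replicate 2 and 100% elsewhere. These included PAX8 +37.8 kb in every HIF-2a/1a, HIF-1a and HIF-1a/2a library and in HIF-2a replicate 2. Peaks per gene were tested by exact permutation of library labels (816 relabellings against WT, 400 by domain, within the other domain), calls per region by Fisher's exact test, and log2 fold over regions called in all 15 tagged libraries by limma 3.58.1 in R 4.3.3, all two-sided, with Benjamini-Hochberg adjustment over every gene or region tested. Alternatives were windows of 10 and 100 kb, a -log10 q of at least 5, other region filters, fragments over depth, rank and no centring. Further ones were a replicate block, leaving out each library, and equal list lengths, a cut to 3984 peaks that left shorter WT lists as they were. Tests were also run on simulated data with independent libraries and no difference in list length. Those runs do not cover the unequal lists of these data or effects shared by libraries of the same replicate number.

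Named regions were, per member, up to 3 called in most tagged libraries, ties by median rank, plus any past an adjusted p of 0.05 in a fold comparison or called in at least 2 WT libraries; sequences were printed where at least 10 tagged libraries had the call. LHX1 -0.8 kb, PAX8 +79.5 kb and HNF4A -44.4 kb were named after their values were seen. The members, the list of 25 other factors and the tests were chosen with earlier results of these data known. The values of 1 of the other factors are not reported here. Counting error only is covered by fragment counts, which carry no molecular identifiers.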

Additional observations from a re-analysis of the deposited data

How the results depend on the processing

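WT1 was the locus called against WT (count 1), and the count became 0 with a 100 kb window and 0 to 1 when libraries were left out one at a time, 0 without WT replicate 1, 2 or 3. The WT1 +14.1 kb call (count 1) likewise ranged from 0 to 1 on leaving out a library. By fragments over depth 1 region passed by IDR and 2 by DBD, by rank 1 by DBD, and 0 to 1 by DBD on leaving out a library (1 without HIF-2a replicate 3), against 0 by fold enrichment for each. Over the 1697 to 1720 regions tested those measures moved the counts from 35 to 768 by IDR and from 44 to 440 by DBD, without centring they were 2 and 9, and the cause was not tested. Differences whose sign turned were all short of the threshold. These were EMX2 against WT (0.07 at 10 kb, 0.80 at 100 kb, and -0.43 to 0.07 on leaving out a library), EMX2 at 100 kb by IDR (-0.33) and DBD (-0.67), PAX8 by IDR (0.17) and SOX9 by DBD (0.17) with lists of equal length, and WT1 by DBD (-0.17 at a -log10 q of at least 5). Leaving out a library moved WT1 peaks by IDR from -0.50 to 0.25 and by DBD from -0.25 to 0.50. In log2 fold enrichment it moved PAX2 -4.0 kb from -0.14 to 0.21 by IDR and from -0.14 to 0.19 by DBD, and PAX8 +37.8 kb from -0.24 to 0.20 by IDR and from -0.32 to 0.53 for exogenous against KIN. By fragments over depth PAX2 -4.0 kb was -0.01 and PAX8 +37.8 kb -0.17 by IDR, and WT1 +14.1 kb 0.01 by DBD. By rank, on the scale where stronger peaks score higher, the IDR differences were -0.66 at PAX2 -4.0 kb and -1.43 at PAX8 +37.8 kb. Without centring, which shifts the median of all regions to -0.21 by IDR and 0.43 for exogenous against KIN, they were -0.20 and -0.23 by IDR, and 0.03 at PAX2 -4.0 kb and 0.12 at WT1 +14.1 kb for exogenous against KIN.

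With the replicate block, the number of member regions called against WT fell from 1 to 0 (WT1 +14.1 kb, adjusted p = 0.0994), the WT1 locus kept its call (adjusted p = 0.046), and PAX8 +37.8 kb by DBD had a limma adjusted p of 0.0548. The block moved the counts over all features from 1140 to 1833 loci and from 1201 to 0 regions called against WT, and from 35 to 71 regions by IDR and 44 to 66 by DBD in fold enrichment. Same-numbered libraries of different lines correlated at a median of 0.07 in their deviations, over 0.1 in 9 of 30 pairs, and differently numbered ones at -0.04, over 0.1 in 0 of 60. Not every pair was over 0.1 and no label ties the numbers to a batch, so they were not taken as a pairing. Even so, 14 of 15 libraries correlated best with their own number, and replicate 2 had the longest list in every line. The library numbers of the deposited lists also ran in consecutive sets by replicate number. These are hints from the data and the numbering, not from a stated design, and joint processing of same-numbered libraries was not tested. Counting error at the weaker regions is large, since a fold of 7.61 to 16.0 at LHX1 +1.6 kb rests on 11 to 29 fragments.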

Other observations

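The member loci held 4 to 19 peaks per tagged library, which was 0.0379 to 0.12% of each list. WT replicate 2 held 4 member peaks, 0.0421% of its list, and the other WT libraries held 0. Of the 4 WT peaks, 2 lay at PAX8, 1 at PAX2 and 1 at EMX2, where EMX2 +56.8 kb had a fold enrichment of 4.65 and no call in a tagged library.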
